A study of Astyanax mexicanus with 96 samples.

Results

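Gene expression in the heart ventricle of Pachón cavefish (PC) was compared between 5 fish sampled 30 days after cryo-injury (30 dpci, days post cryo-injury) and 3 uninjured fish. These 8 libraries were chosen by their labels from 96 libraries of the Mexican tetra, Astyanax mexicanus. The PC form is a blind cave population; its river-dwelling counterpart, surface fish (SF), was sampled in the same way. Fish were 2 years old and age matched within experiments, and each library came from a single ventricle. The injury was made by touching the ventricle tip with a copper probe chilled in liquid nitrogen. The uninjured fish had no surgery, and no sham-operated fish were taken at 30 days, so that opening the body and freezing the heart cannot be told apart in this comparison. Sex, time of day of sampling and sequencing batch are not in the labels. The comparison asks which genes of the cavefish ventricle were still, or newly, away from the uninjured level a month after injury. SF uninjured (3) and SF 30 dpci (5) ventricles, and PC ventricles at 3 days post sham (3 dps, 5), 7 dpci (5) and 14 dpci (5), serve as references.

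As background, freezing kills the cardiomyocytes, vessels and fibroblasts of part of the ventricular wall. Immune cells then clear the debris, fibroblasts and epicardial cells lay down a collagen-rich matrix, and in fish that regenerate the scar is resolved while surviving cardiomyocytes divide. The study reported that SF can regenerate the heart, whereas PC form a permanent scar. A month after injury is a late time, at which matrix is remodelled and the remaining muscle carries the load. Stretched cardiomyocytes are known to secrete natriuretic peptides. In a whole ventricle, fewer cells of a type and less RNA per cell cannot be told apart.

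Libraries were made from the 3′ ends of messenger RNA, in which 1 read stands for about 1 transcript, and levels are given as CPM, the counts relative to a scaled library total. The uninjured libraries held 1327051 to 1633542 counts and the 30 dpci libraries 672292 to 1904791, the lower value being the lowest of the series (672292 to 2586602). Across 5499 genes, log2 CPM of 2 uninjured libraries correlated at r = 0.939 to 0.942, of 2 libraries at 30 dpci at 0.927 to 0.944, and of 1 library of each group at 0.906 to 0.932. The tissue label was borne out by myl7, a myosin light chain of heart muscle, at 15936 to 18921 CPM without injury and 14760 to 22204 CPM at 30 dpci. Other cell type markers overlapped between groups, except that summed smooth muscle markers (3 genes) were at 63.6 to 90.6 against 94.8 to 122 CPM. Fast skeletal muscle markers (5 genes) summed to 1.66 to 7.52 CPM in uninjured libraries and reached 97.5 CPM in 30 dpci replicate 5, and mpx and npsn (neutrophils), cd79a (B cells) and fabp10a (liver) had no read.

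Of 18763 genes tested, 89 were called at 30 dpci against uninjured ventricles (0.474% of genes, edgeR, Benjamini-Hochberg adjusted p under 0.05 and a fold change above 2), 37 higher (0.197%) and 52 lower (0.277%). The higher genes included a natriuretic peptide (nppal), growth factors (bmp10, mdka), the matricellular gene ccn1, type I collagen (col1a2), a cardiac transcription factor (hand2) and clock repressors. The lower genes included metallothionein (mt2), the thioredoxin inhibitor txnipa, glucocorticoid targets (fkbp5, ddit4), the muscle ubiquitin ligase fbxo32 and the thin filament gene lmod2a. All but 3 of the lower genes carried a symbol. An unadjusted p under 0.05 was found for 1628 of the 18763 genes. The number of calls fell to 54 without uninjured replicate 1 and to 50 without uninjured replicate 3, and to 51 when all libraries were thinned to the smallest total. In the 8 fits that each left out 1 library, 26 of the 89 genes were called every time. The count also depended on the factor of unwanted variation in the model: it was 152 with PC libraries only, 285 with the 8 libraries alone and no factor, and 6 with the 8 libraries and a factor estimated from them, which itself followed the groups. The factor of the main fit, from all 96 libraries, separated the groups as well. It was -0.0307 to -0.0131 in uninjured and -0.0892 to -0.0516 in injured libraries, so fitted changes and calls depend on this adjustment.

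**Figure D1:**
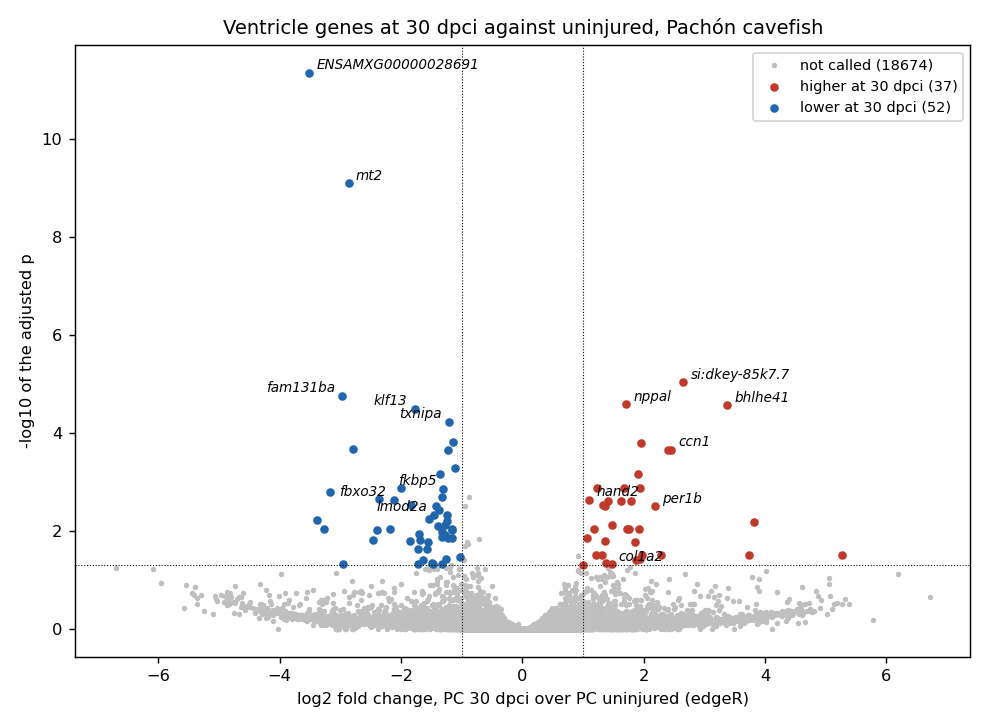
Each point is 1 of 18763 genes, with the log2 fold change of PC 30 dpci (5 libraries) over PC uninjured (3 libraries) on the x axis and -log10 of the adjusted p on the y axis; dotted lines mark a fold change of 2 and an adjusted p of 0.05. The 37 genes called higher are red and the 52 called lower are blue, with ENSAMXG00000028691 and mt2 at the smallest adjusted p.

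Expression of nppal rose at 30 dpci. The gene (chromosome 6, 41374650 to 41377504 on Mexican tetra 2.0) is named after natriuretic peptide A and described in the annotation as a C-type natriuretic peptide. It stood at 76.9, 78.1 and 88.4 CPM in uninjured replicates 1, 3 and 5 and at 214, 288, 266, 226 and 244 CPM in 30 dpci replicates 1 to 5. All 5 injured ventricles lay above all 3 uninjured ones, and neither group spread by as much as the gap between them. The means were 81.1 ± 6.33 (SD, n = 3) and 247 ± 30.1 CPM (SD, n = 5), a log2 fold change of 1.71 ± 0.27 (SE, edgeR adjusted p = 2.57e-05). At 3 dps, 7 dpci and 14 dpci its mean was 102, 112 and 132 CPM, so that 30 dpci held the highest level of these groups, and it was also above 3 dps (log2 fold change 1.25, edgeR adjusted p = 6.68e-05). Against 14 dpci, the nppal difference had an adjusted p of 0.157.

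The growth factor bmp10, a ligand of the TGF-beta family made by the heart and required for its trabeculae in other vertebrates, was at 34.3, 24.9 and 34.7 CPM without injury and at 82.9, 71.2, 98.4, 93.3 and 41.9 CPM at 30 dpci. Replicate 5 was the lowest of the injured ventricles but still above the uninjured ones. The change was 1.49 ± 0.33 on the log2 scale (SE, edgeR adjusted p = 0.00752) and was lost as a call without uninjured replicate 3. Its mean was 51.6 CPM at 3 dps, 19.2 CPM at 7 dpci and 47.7 CPM at 14 dpci, beside an uninjured mean of 31.3 CPM. The difference of 30 dpci from 3 dps did not pass the test (edgeR adjusted p = 0.332). The paralogue bmp10l, more abundant at 754 ± 26.7 CPM, was at 693 ± 186 CPM and was not called (log2 fold change 0.15). bmp10 was the 1 called gene among 74 tested genes of growth factor signalling, beside 0.474% of all genes called. The median log2 fold change of that list was 0.31 against -0.008 over all genes.

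hand2, a basic helix-loop-helix factor of heart development, rose from 204, 206 and 235 CPM to 439, 409, 412, 313 and 339 CPM. The groups did not overlap, with a log2 fold change of 1.11 ± 0.23 (SE, edgeR adjusted p = 0.00227). The ratio of mean CPM was 1.78, under the 2-fold threshold that the fitted change passed. hand2 was at 410.1 CPM (mean, range 262 to 547) already at 3 dps and back near the uninjured mean at 7 and 14 dpci (221 and 236 CPM). No other of the 18 cardiac transcription factors tested was called, beside 0.474% of all genes called. Among those not called were mef2aa (258 ± 70.9 and 319 ± 93.0 CPM), gata6 (149 ± 16.6 and 177 ± 21.7 CPM) and nkx2.5 (156 ± 8.57 and 128 ± 22.7 CPM).

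Among 39 cardiac sarcomere genes, 1 was called higher and 1 lower, beside 0.197% and 0.277% of all genes. smyd1b, a methyltransferase and chaperone partner of muscle myosin, stood at 41.8, 66.5 and 60.3 CPM in uninjured and at 126, 146, 162, 153 and 108 CPM in injured ventricles. Every injured library was above every uninjured one (log2 fold change 1.36 ± 0.28, SE, edgeR adjusted p = 0.00308), and smyd1b was also above its 3 dps level of 64.1 CPM (adjusted p = 0.00144). The call was lost without uninjured replicate 1, and an antisense neighbour overlaps the gene, whose reads cannot be told apart if counting ignored strand.

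lmod2a, a leiomodin that lengthens the thin filaments of cardiac muscle, fell from 5115, 5376 and 4752 CPM to 885, 1410, 1736, 1518 and 1813 CPM. It was the most abundant of the called genes, and the injured libraries lay far under the uninjured ones (log2 fold change -1.45 ± 0.31, SE, edgeR adjusted p = 0.00466). The level of lmod2a was 2652 CPM at 3 dps, 820.4 CPM at 7 dpci and 1186 CPM at 14 dpci, so that its mean was lower than the uninjured mean in all 4 operated groups. Its call was lost without uninjured replicate 3, and it too overlaps a gene on the other strand.

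The most abundant sarcomere genes were not called. myl7 was at 17249 ± 1524 and 18576 ± 2820 CPM, the light chain cmlc1 at 16538 ± 1611 and 11529 ± 3284 CPM, tpm4a at 14304 ± 409.5 and 12578 ± 2599 CPM, and myh7l at 7613 ± 361 and 8199 ± 1724 CPM (means ± SD, n = 3 and 5). The actin gene acta1b was at 812 ± 117 and 895 ± 261 CPM (log2 fold change 0.28 ± 0.33, SE), and tnnc1a had no read in the 8 libraries. Another cardiac actin, zgc:86709 (described as actin, alpha cardiac muscle 1), did rise, from 103, 116 and 106 CPM to 311, 357, 414, 230.2 and 147 CPM. Replicate 5 was again the lowest injured library, above the uninjured range (log2 fold change 1.72 ± 0.39, SE, edgeR adjusted p = 0.00926; call lost without uninjured replicate 1 or 5).

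ccn1 encodes a secreted matricellular protein that is induced by stretch and injury. It was at 15, 19.9 and 10.7 CPM in uninjured ventricles and at 86.4, 78.7, 111, 67.7 and 117 CPM at 30 dpci. The lowest injured library was far above the highest uninjured one, and the log2 fold change was 2.45 ± 0.43 (SE, edgeR adjusted p = 0.000222). ccn1 was the 1 gene of the 89 that was called in each of 19 alternative fits. It was at 42.8 CPM at 3 dps, 91.9 CPM at 7 dpci and 62.8 CPM at 14 dpci, and the difference from 3 dps passed the test as well (log2 fold change 1.16, adjusted p = 0.0266). Of the 12 genes tested on the list of cardiac stress and fetal genes, ccn1 alone was called, beside 0.474% of all genes called. The list members desma (642 ± 71.5 and 705 ± 104 CPM) and tagln (613 ± 93.3 and 493 ± 114 CPM) were not called. nppal, called above, is not on this list.

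The heparin-binding growth factor midkine (mdka), known from regenerating tissue in zebrafish, was at 48.5, 33.2 and 24.8 CPM without injury and at 107, 99.2, 120.0, 135 and 113 CPM at 30 dpci. The groups were apart (log2 fold change 1.62 ± 0.33, SE, edgeR adjusted p = 0.00243; call lost without uninjured replicate 5). Its mean of 115 CPM at 30 dpci followed 352 CPM at 7 dpci and 214 CPM at 14 dpci, and stood near the 87.5 CPM of 3 dps (adjusted p = 0.504).

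Of 40 collagen genes tested, col1a2, a chain of the type I collagen of scars, was the 1 called, beside 0.474% of all genes. Its levels were 104, 69.8 and 51.2 CPM in uninjured and 198, 257, 251, 366 and 209 CPM in injured ventricles. The groups did not overlap (log2 fold change 1.47 ± 0.39, SE, edgeR adjusted p = 0.0478), but with this adjusted p near the threshold the call was lost without uninjured replicate 3 or 5 or 30 dpci replicate 2, 3 or 4. col1a2 overlaps a gene on the other strand. The level at 30 dpci was under the mean of 1127 CPM at 7 dpci and 736 CPM at 14 dpci, and close to that of 3 dps (316 CPM, adjusted p = 0.963). The partner chain col1a1b went from 64.0 ± 6.17 to 205 ± 45.1 CPM and missed the threshold (log2 fold change 1.35, adjusted p = 0.08). col6a2 was at 65.4 ± 18.3 and 119 ± 21.7 CPM and col4a1 at 91.2 ± 13.2 and 107 ± 20.2 CPM.

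No gene was called on the lists of other matrix and fibroblast genes (62 tested, 14 at an unadjusted p under 0.05) and of metalloproteinases and inhibitors (43 tested, 3 at an unadjusted p under 0.05) with edgeR, against 1 and 0 with DESeq2. Their median log2 fold changes were 0.22 and 0.35, and that of collagens 0.14. Beside the counts of these lists, 1628 of all 18763 genes had an unadjusted p under 0.05 with edgeR. As a value per library, the mean over a list of log2(CPM + 1) was 1.68 to 1.86 for collagens without injury and 1.96 to 2.12 at 30 dpci, 2.59 to 2.74 against 2.80 to 3.14 for other matrix genes, and 1.54 to 1.68 against 1.79 to 1.92 for metalloproteinases. These 3 scores were higher in every injured library, by 0.28, 0.28 and 0.22. The sizes depended on scaling, with 0.37, 0.43 and 0.33 when CPM was taken on total counts. Sham fish at 3 dps had mean scores of 2.18, 2.95 and 1.91, beside means of 2.06, 2.97 and 1.84 at 30 dpci. Scores above the uninjured means were thus also seen after surgery without freezing. The sum of 3 smooth muscle markers was also higher in every injured library, while no gene of the smooth muscle list (22 tested) was called or had an unadjusted p under 0.05 with edgeR (0 called with DESeq2) and its score overlapped, at 3.62 to 3.92 and 3.55 to 4.03. The part of smooth muscle in the matrix scores was not tested.

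**Figure D2:**
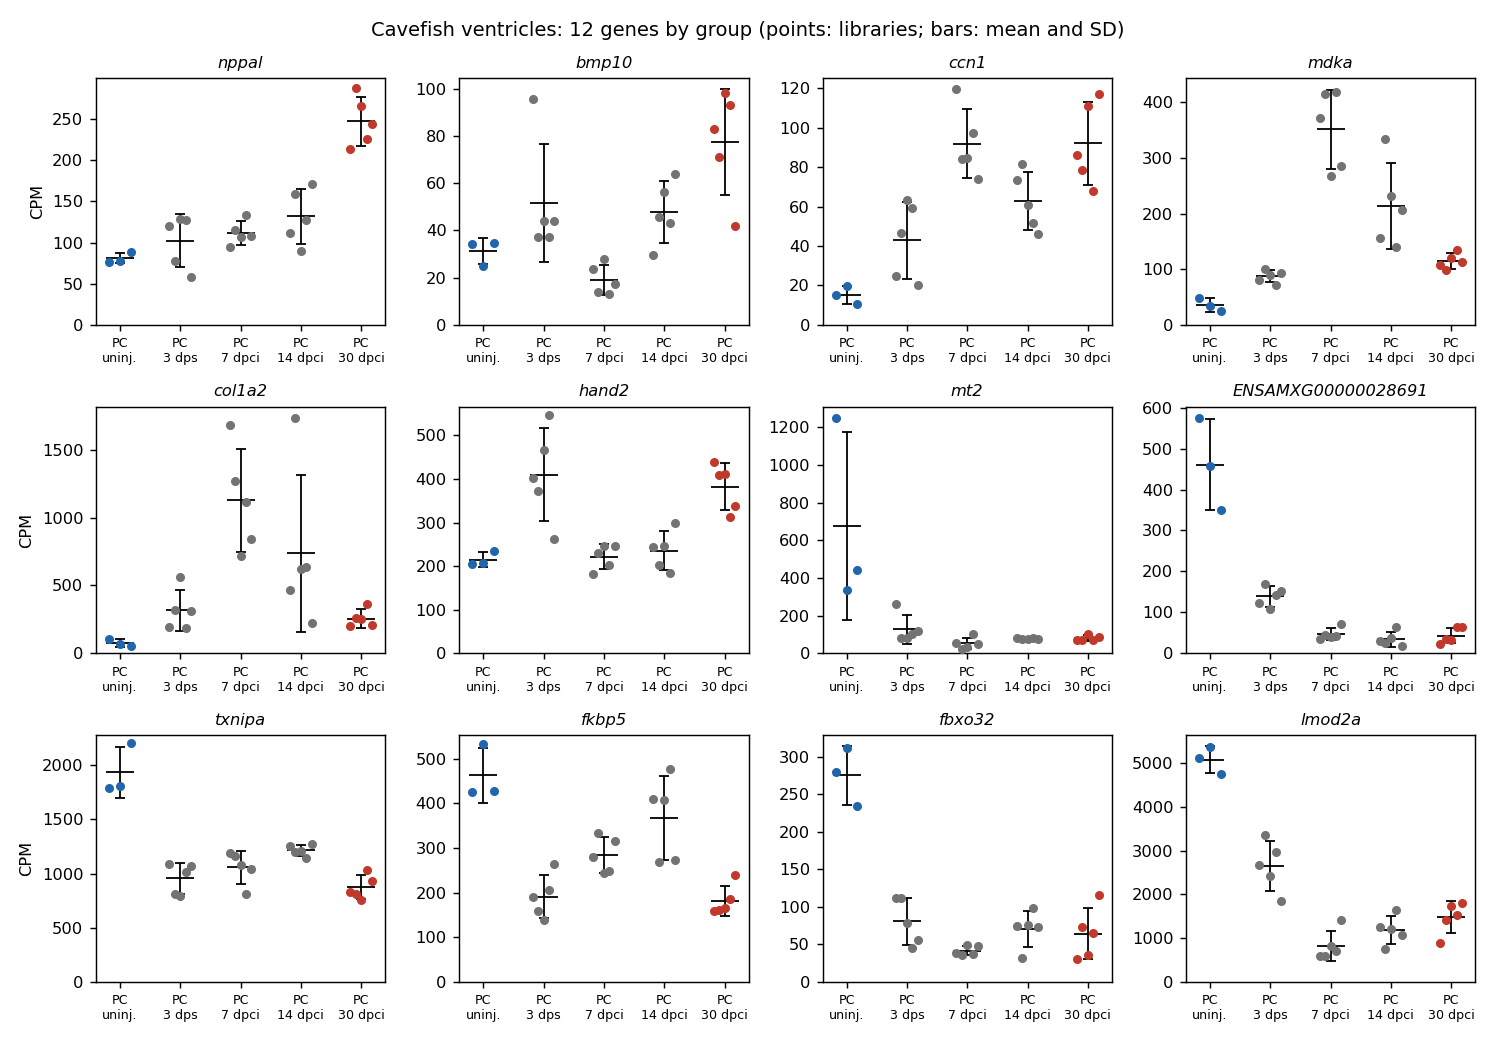
CPM of 12 called genes in each PC library (points) with the group mean and SD (bars): uninjured (3 libraries, blue), 3 dps, 7 dpci and 14 dpci (5 each, grey) and 30 dpci (5, red). The mean of nppal was highest at 30 dpci (247 CPM), those of mdka and col1a2 at 7 dpci (352 and 1127 CPM), and mt2, ENSAMXG00000028691, txnipa, fbxo32 and lmod2a had lower means in all 4 operated groups than in uninjured fish.

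The remaining genes among the 15 with a symbol and the smallest adjusted p on the higher side had various known roles. si:dkey-85k7.7, whose annotation gives no function, went from 6.69, 37.4 and 38.0 CPM to 150.0, 149, 170.1, 126 and 102 CPM. All injured libraries were more than the highest uninjured one (log2 fold change 2.65 ± 0.40, SE, edgeR adjusted p = 9.13e-06), and the gene was at 36.8 CPM at 3 dps and 15.1 CPM at 7 dpci. It overlaps a gene on the other strand. arg2, the mitochondrial arginase, went from 67.7, 152 and 293 CPM to 398, 496, 493, 412 and 340.0 CPM. The uninjured fish spread more than 4-fold here, and the call (log2 fold change 1.67 ± 0.33, SE, adjusted p = 0.00132) was lost without uninjured replicate 1.

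Membrane and signalling genes made up most of the others. AVPR1A, a vasopressin receptor, was at 34.9 ± 6.11 CPM in uninjured and 112 ± 38.3 CPM in injured ventricles (log2 fold change 1.94). The kinase gene sik1 was at 27.4 ± 7.23 and 94.6 ± 20.5 CPM (log2 fold change 1.78), and at 107 CPM at 3 dps. dact1, an antagonist in Wnt signalling, was at 7.76 ± 0.520 and 27.5 ± 5.32 CPM (log2 fold change 1.91). None of these 3 genes overlapped between groups. The small GTPase rhoua (103 ± 33.1 and 233 ± 56.8 CPM), the sarcolemma-associated slmapa (98.5 ± 22.3 and 197 ± 46.1 CPM) and pmp22b, named after a myelin membrane protein (95.9 ± 10.1 and 197 ± 31.4 CPM), rose by 1.24 to 1.41 on the log2 scale. The 14-3-3 gene ywhag2 (4.16 ± 1.46 and 21.5 ± 4.50 CPM, log2 fold change 2.40) and the nuclear envelope gene tmpoa (8.87 ± 2.7 and 32.0 ± 9.23 CPM, log2 fold change 1.95) were at lower levels. Without uninjured replicate 1 the call of rhoua was lost, and without uninjured replicate 3 that of sik1.

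On the lower side, ENSAMXG00000028691 had the smallest adjusted p of all genes. The annotation gives it a clone name and no function, and places it on a scaffold outside the chromosomes. It fell from 574, 458 and 350.3 CPM to 21.6, 35.6, 32.0, 63.2 and 63.5 CPM. The injured libraries were all far under the uninjured ones, and the log2 fold change was -3.51 ± 0.36 (SE, edgeR adjusted p = 4.43e-12). The 5 libraries at 3 dps lay in between, at 107 to 169.5 CPM, and 30 dpci was lower than these too (log2 fold change -1.68, adjusted p = 0.000347).

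mt2 encodes a metallothionein, a small protein that binds zinc and copper. It was at 1248, 337 and 443 CPM in uninjured ventricles and at 69.3, 69.0, 105, 69.2 and 83.9 CPM at 30 dpci. Uninjured replicate 1 stood well above the other two, yet all 3 were over 3 times the highest injured library (log2 fold change -2.86 ± 0.33, SE, edgeR adjusted p = 7.89e-10). It was low at 3 dps (78.6 to 261 CPM) and at 14 dpci (76.3 to 83.3 CPM) as well, and 30 dpci did not pass the test against 3 dps (adjusted p = 0.2). A second gene carries the same symbol, at a mean of 12.8 CPM in uninjured ventricles, and reads that fit both may be split between them.

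txnipa, which encodes an inhibitor of thioredoxin that also restrains glucose uptake, fell from 1787, 1812 and 2205 CPM to 828, 813, 752, 1034 and 934 CPM. The 2 ranges were narrow and apart (log2 fold change -1.21 ± 0.20, SE, edgeR adjusted p = 5.79e-05). Its mean at 3 dps was 956 CPM. The 3 genes called of 47 antioxidant and glutathione genes were mt2, txnipa and nfe2l1a, a transcription factor known for the control of proteasome genes. All 3 fell, beside 0.277% of all genes called lower. nfe2l1a was at 30.2 ± 11.4 CPM without injury and 8.60 ± 3.83 CPM at 30 dpci (log2 fold change -1.70 ± 0.39, SE, adjusted p = 0.0117), a call lost without uninjured replicate 3 or 30 dpci replicate 3 or 4. The iron store gene fth1a (2334 ± 62.3 and 1912 ± 213 CPM) and sod2 (461 ± 47.7 and 419 ± 81.3 CPM) were not called, and the median of the list was -0.16.

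Glucocorticoid hormones act through a nuclear receptor and raise a set of target genes in most tissues. fkbp5, a co-chaperone of that receptor and one of its targets, was at 426, 533 and 429 CPM without injury and at 158, 161, 165, 185 and 239 CPM at 30 dpci. Injured libraries were all lower (log2 fold change -1.30 ± 0.26, SE, edgeR adjusted p = 0.00139; call lost without uninjured replicate 3). Its mean was 191 CPM at 3 dps, 284 CPM at 7 dpci and 367 CPM at 14 dpci, and 30 dpci was lower than 14 dpci (log2 fold change -1.06 ± 0.23, SE, adjusted p = 0.0294).

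ddit4, an inhibitor of the growth kinase mTORC1, fell from 228, 164 and 155 CPM to 65.9, 55.0, 62.9, 84.3 and 94.1 CPM (log2 fold change -1.57 ± 0.39, SE, edgeR adjusted p = 0.0232). The groups were apart, but the call was lost without any 1 of uninjured replicates 1 and 3 and 30 dpci replicates 1, 2 and 3, and a second gene shares the symbol. Of 29 genes on the list of glucocorticoid targets and stress hormones, fkbp5 and ddit4 fell and per1a, also a clock gene, rose. These calls stand beside 0.474% of all genes called. pdk4 (255 ± 4.50 and 263 ± 27.3 CPM) and mknk2b (181 ± 51.1 and 137 ± 29.8 CPM) were not called. The list score was 3.78 to 4.07 in uninjured and 3.36 to 3.74 in injured libraries, a difference of -0.31 that shrank to -0.13 when CPM was taken on total counts without scaling. The antioxidant score was 4.14 to 4.29 against 3.88 to 4.09, a difference of -0.20 that shrank to -0.01 in the same way.

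fbxo32, the atrophy-linked ubiquitin ligase atrogin-1 of muscle, was at 279, 312 and 234 CPM in uninjured ventricles and at 30.7, 73.4, 35.5, 64.7 and 116 CPM at 30 dpci. Replicate 5 was the highest of the injured libraries and still under each uninjured one (log2 fold change -2.12 ± 0.43, SE, edgeR adjusted p = 0.00227). It was at 80.4 CPM at 3 dps. The ubiquitin gene UBB fell from 358 ± 83.8 to 153 ± 25.1 CPM (log2 fold change -1.22), and klhl24b, a kelch protein, from 45.5 ± 15.1 to 11.4 ± 7.61 CPM (log2 fold change -2.0). klhl24b was at 50.9 CPM at 3 dps, close to the uninjured mean, and 30 dpci was lower than 3 dps (log2 fold change -2.19, adjusted p = 9.81e-06).

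klf13, a Krüppel-like transcription factor, fell from 80.2, 106 and 88.4 CPM to 15.9, 25.9, 21.6, 33.1 and 35.1 CPM. No injured library reached a level near the uninjured ones (log2 fold change -1.77 ± 0.29, SE, edgeR adjusted p = 3.14e-05). klf13 was at 30.4 CPM at 3 dps, 62.2 CPM at 7 dpci and 74.2 CPM at 14 dpci, and it was lower at 30 dpci than at 14 dpci (log2 fold change -1.56 ± 0.26, SE, adjusted p = 0.000378). glulb, a glutamine synthetase, had the same order of means, with 47.9 CPM uninjured, 9.81 CPM at 3 dps, 28.5 CPM at 7 dpci, 38.7 CPM at 14 dpci and 9.76 CPM at 30 dpci (log2 fold change -2.36 against uninjured, adjusted p = 0.00224; call lost without uninjured replicate 3).

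The other 6 genes among the 15 lower genes with a symbol and the smallest adjusted p changed by -1.10 to -2.97 on the log2 scale. fam131ba (63.5 ± 33.3 and 6.41 ± 3.09 CPM) and tmem86a (51.5 ± 11.9 and 7.68 ± 4.18 CPM) had the largest changes of these 6. A gene with no symbol and no described function, ENSAMXG00000036506, had a larger one, from 58.5, 34.9 and 95.0 CPM to 3.41, 14.0, 0.582, 6.02 and 5.67 CPM without overlap (log2 fold change -3.16 ± 0.61, SE, edgeR adjusted p = 0.00159). The MAP kinase phosphatase gene dusp7 was at 254 ± 16.6 and 125 ± 25.1 CPM, fam107b at 227 ± 13.7 and 97.1 ± 17.8 CPM, and the hypoxia-inducible factor gene hif1al at 122 ± 23.8 and 49.8 ± 7.08 CPM. rassf2a was at 66.5 ± 4.75 and 30.7 ± 5.41 CPM. At 3 dps, fam107b (101 CPM), dusp7 (135 CPM) and hif1al (47.8 CPM) stood near their 30 dpci means, whereas fam131ba (40.7 CPM) was higher than at 30 dpci (adjusted p = 5.41e-06). The immediate early gene btg2, which restrains cell division, was the 1 called of 27 such genes, beside 0.474% of all genes called. It fell from 418 ± 35.9 to 198 ± 21.1 CPM (log2 fold change -1.28, edgeR adjusted p = 0.00752), a call lost without uninjured replicate 1.

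The circadian clock of vertebrates runs on a loop in which activators such as Bmal1 drive repressors of the period and Bhlhe families, which then switch the activators off. Of 43 clock genes tested, 5 were called, 3 higher and 2 lower, beside 0.197% and 0.277% of all genes. per1a was at 20.1, 15 and 28.9 CPM in uninjured PC and at 62.5, 59.3, 41.4, 61.7 and 57.8 CPM at 30 dpci. The groups did not overlap (log2 fold change 1.37 ± 0.33, SE, edgeR adjusted p = 0.0162). per1b rose from 14.2, 6.65 and 15.7 CPM to 68.2, 73.4, 50.7, 27.1 and 34.0 CPM (log2 fold change 2.19 ± 0.46, SE, adjusted p = 0.00313), again without overlap.

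bhlhe41, a repressor of the same loop, went from 3.34, 0.831 and 2.48 CPM to 30.7, 25.9, 20.4, 25.6 and 13.6 CPM. It was near the limit of detection in uninjured ventricles and present in every injured one (log2 fold change 3.37 ± 0.54, SE, edgeR adjusted p = 2.7e-05). arntl1b, a Bmal1 gene and so an activator, was at 25.9, 20.8 and 23.1 CPM without injury and at 4.54, 3.24, 5.24, 4.51 and 11.3 CPM at 30 dpci. Replicate 5 was the highest injured library but under the uninjured range (log2 fold change -2.17 ± 0.49, SE, adjusted p = 0.00926). nr1d4b, a nuclear receptor of the Rev-erb type, was at 24.4 ± 12 and 7.72 ± 2.58 CPM (log2 fold change -1.64, adjusted p = 0.0381), and its call was lost in 6 of 8 leave-one-out fits. Calls were lost without uninjured replicate 1 or 3 for per1a, 3 for per1b and 1 for arntl1b, and in none of these fits for bhlhe41.

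For 4 of these 5 clock genes the means stood in the reverse order in SF. Between SF uninjured and SF 30 dpci, per1a was at 68.6 ± 15.7 and 9.56 ± 3.68 CPM, per1b at 29.5 ± 5.21 and 6.74 ± 3.52 CPM, and bhlhe41 at 24.2 ± 7.39 and 10.1 ± 3.61 CPM (means ± SD, n = 3 and 5). The PC change minus the SF change was 4.21 ± 0.45 for per1a (SE, log2 scale, edgeR adjusted p = 4.32e-11), 4.17 ± 0.63 for per1b (adjusted p = 5.66e-06) and 4.59 ± 0.65 for bhlhe41 (adjusted p = 1.02e-06). arntl1b had the higher mean at 30 dpci in SF (6.68 ± 4.76 and 17.6 ± 5.38 CPM), with a difference of -3.48 ± 0.70 (adjusted p = 0.00252). For nr1d4b the difference was -0.34 and did not pass the test. The hour at which each fish was sampled is not in the labels. Injury and hour of sampling thus cannot be told apart for these genes, nor for the other genes of these comparisons.

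**Figure D3:**
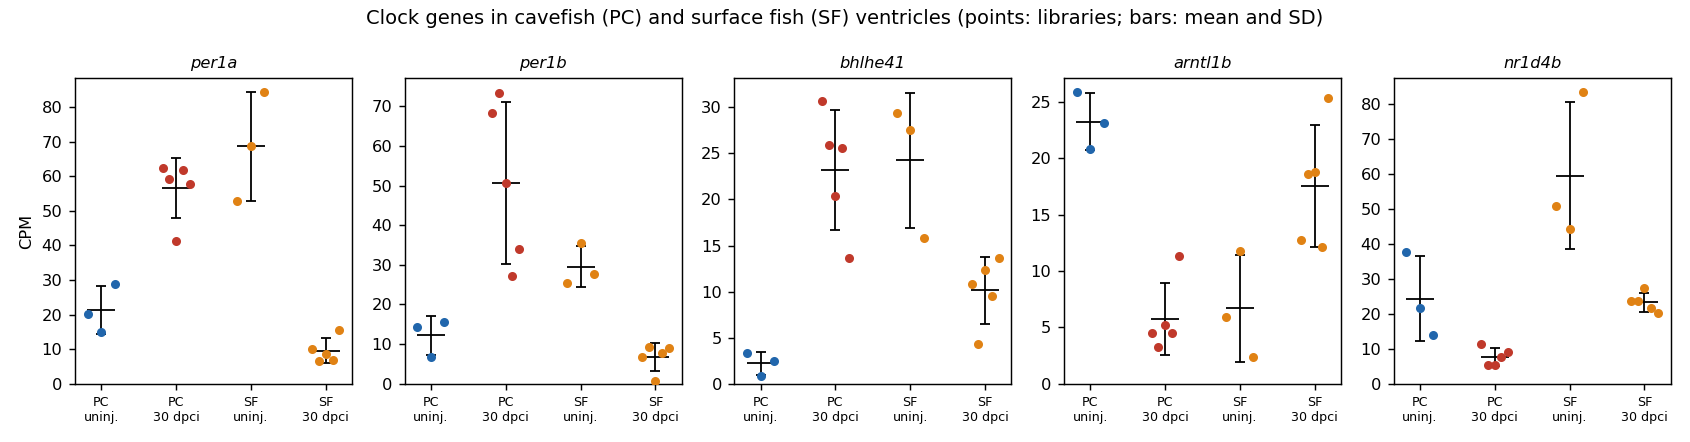
CPM of 5 clock genes per library (points) with mean and SD (bars) in PC uninjured (3), PC 30 dpci (5), SF uninjured (3) and SF 30 dpci (5). per1a, per1b and bhlhe41 were higher at 30 dpci in PC and lower at 30 dpci in SF, arntl1b showed the reverse, and nr1d4b had lower means at 30 dpci in both (7.72 CPM in PC, 23.3 CPM in SF).

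Energy metabolism was a main subject of the study. No gene was called among 47 genes of complex I (3 at an unadjusted p under 0.05), 60 of complexes II to V (6) and 10 of the malate-aspartate shuttle (0) with edgeR, against 0, 1 and 0 called with DESeq2. Over all genes, 0.474% were called and 1628 of 18763 had an unadjusted p under 0.05 with edgeR. Lists of this size can hold no call at that share. Median log2 fold changes of these lists were, in the same order, -0.12, 0.07 and 0.17. ndufs7 of complex I was at 3910 ± 381 and 2397 ± 401 CPM with a fitted log2 fold change of -0.35 (adjusted p = 0.625), and cox6c of complex IV at 6580 ± 993 and 6511 ± 1141 CPM. The cytosolic malate dehydrogenase gene mdh1ab was at 208 ± 45.4 and 269.8 ± 27.5 CPM (log2 fold change 0.15 ± 0.34, SE), and mdh2 at 1987 ± 97.6 and 1948 ± 324 CPM. The complex I score was 7.62 to 7.73 in uninjured and 7.34 to 7.62 in injured libraries, a difference of -0.21 that turned to 0.01 on total counts.

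Single genes of fuel use were called, beside 0.474% of all genes called. pdk2a, a kinase that shuts the pyruvate dehydrogenase complex, fell from 56.8, 22.4 and 62.0 CPM to 9.09, 10.8, 16.3, 15 and 23.8 CPM. The lowest uninjured library lay within the injured range (log2 fold change -1.49 ± 0.39, SE, edgeR adjusted p = 0.0439). pdk2a was the 1 gene called of 35 on the list of the TCA cycle and was lower than at 14 dpci too (44.4 CPM, adjusted p = 0.0145). acaa2, which carries out the last step of fatty acid beta-oxidation, was at 54.8 ± 4.83 and 103 ± 21.6 CPM (log2 fold change 1.01, adjusted p = 0.0487) and was the 1 called of 38 genes of fatty acid use. The glucose transporter slc2a1a was at 20.2 ± 4.69 and 38.4 ± 16.2 CPM, with 30 dpci replicate 5 at 12.5 CPM inside the uninjured range (log2 fold change 1.31, adjusted p = 0.0311), and was the 1 called of 45 genes of glycolysis. The call of acaa2 and of slc2a1a was lost in 7 of 8 leave-one-out fits each, and that of pdk2a in 6. ldha was at 202 ± 32.3 and 198 ± 20.9 CPM, with no direction that held across fits.

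Among 30 genes of the hypoxia response, epoa and slc2a1a rose and ddit4 fell, beside 0.474% of all genes called. The hypoxia-inducible factor gene hif1al, given above, was called lower (log2 fold change -1.35) and is not on this list. epoa encodes erythropoietin, the hormone of red cell production, and was at 12.5, 4.99 and 9.92 CPM without injury and at 20.5, 18.3, 28.5, 33.1 and 20.4 CPM at 30 dpci. Every injured library was above the uninjured ones (log2 fold change 1.76 ± 0.40, SE, edgeR adjusted p = 0.00926; call lost without uninjured replicate 3). No gene of the 23 on the erythroid list was called with edgeR (1 at an unadjusted p under 0.05) or DESeq2 (0), and summed erythroid markers overlapped at 3473 to 9220 and 3371 to 12933 CPM.

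For 4 called genes at the edge of detection the fold is given as a bound. gpr183b had no read in any uninjured library and 1.08 to 6.80 CPM at 30 dpci, which is at least 1.24-fold higher than the mean level that 3 reads per library would give. MIR133A1, annotated as microRNA 133a-1, and si:ch211-168f7.5 had at most 3 reads per uninjured library. Their means at 30 dpci were at least 4.28-fold and 4.20-fold higher than the level of 3 reads per library. The MIR133A1 groups overlapped, with 30 dpci replicate 5 at 2.27 CPM and uninjured replicate 1 at 2.51 CPM. MTSS1, with at most 1 read in each injured library, was at least 2.12-fold lower. All but MTSS1 overlap genes on the other strand, and 3 genes carry the symbol MTSS1. The calls of all 4 were lost without at least 1 library, uninjured replicate 5 among them in each case.

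No gene was called on 25 of the 38 lists. These held 1038 tested genes, of which 103 had an unadjusted p under 0.05 with edgeR and 6 were called with DESeq2. Over all genes, 1628 of 18763 had an unadjusted p under 0.05 and 0.474% were called with edgeR. At that share a list of this size can hold no call, so these lists are not shown to be unchanged. The 25 lists included macrophages and monocytes (56 genes, median log2 fold change 0.05), neutrophils (21, -0.13), lymphocytes (28, 0.18), interferon response and antigen presentation (60, -0.14), the epicardium (17, 0.36), endothelium and endocardium (43, -0.16) and smooth muscle (22, 0.17). The antigen presentation chaperone cd74a was at 934 ± 348 and 1124 ± 198 CPM. In the cell cycle list (76 genes, median -0.24), pcna, the replication clamp, was at 70.2, 41.5 and 30.6 CPM in uninjured and 29.5, 33.4, 58.8, 46.7 and 30.6 CPM in injured ventricles. The pcna ranges overlapped, and its log2 fold change was -0.21 ± 0.28 (SE, edgeR adjusted p = 0.942), whereas against 3 dps, with a mean of 109 CPM, it was lower by a log2 fold change of -1.44 (adjusted p = 1.33e-05).

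**Figure D4:**
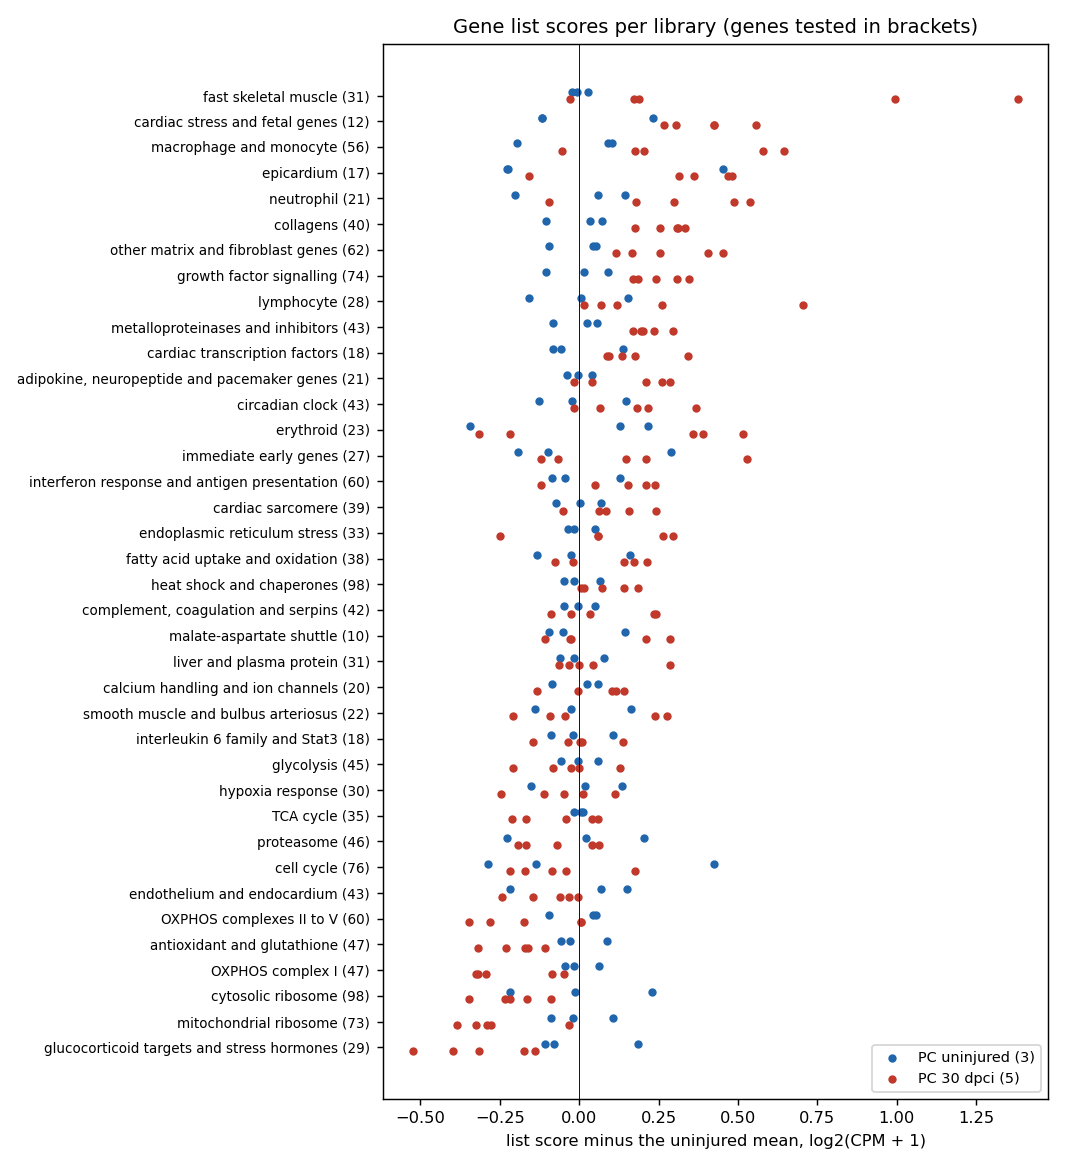
Scores of 38 gene lists, each the mean of log2(CPM + 1) over the tested genes of the list, in 3 PC uninjured (blue) and 5 PC 30 dpci (red) libraries, given as the difference from the uninjured mean. Ranges did not overlap for 8 lists, 5 of them higher at 30 dpci (collagens, other matrix genes, metalloproteinases, growth factors, cardiac stress genes) and 3 lower (glucocorticoid targets, antioxidants and complex I, of which complex I changes sign and the other 2 shrink on total counts); the fast skeletal muscle score reached 3.38 in 1 injured library against at most 2.03 in uninjured ones.

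Set against 14 dpci, in a comparison that shares the 30 dpci libraries with the one above, 10 genes were called at 30 dpci (0.0533%), all lower, of which 9 are named here; 0 were higher with edgeR, where 620 had an unadjusted p under 0.05, and 6 with DESeq2. glula, a second glutamine synthetase gene, was at 124 ± 36.8 CPM at 14 dpci, 29.5 ± 9.83 CPM at 30 dpci and 17.7 ± 7.46 CPM in uninjured fish (adjusted p = 0.000977). The collagen col12a1a was at 10.2 to 141 CPM at 14 dpci and 4.51 to 7.57 CPM at 30 dpci (log2 fold change -2.55 ± 0.48, SE, adjusted p = 0.00294), beside 2.22 CPM in uninjured ventricles. Also called were klf13, fkbp5 and pdk2a, given above, and pfkfb4b, calua, abracl and sh3pxd2b. This count depended on single libraries, with 6 genes without 14 dpci replicate 2, 5 without replicate 3 and 19 without replicate 5, and 6, 4 and 4 without 30 dpci replicate 1, 2 and 3. It was 71 without the factor of unwanted variation.

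Against the sham fish of 3 dps, 282 genes were called at 30 dpci (1.5%), 83 higher (0.442%) and 199 lower (1.06%); the time since surgery differs here, and the count was 160 without 3 dps replicate 5. Genes named above differed from 3 dps in either direction or not at all by the test. For nppal, ccn1, smyd1b, arg2, ywhag2, si:dkey-85k7.7, rhoua, per1a and per1b the 30 dpci level was above 3 dps. The edgeR adjusted p was 0.000355 for ywhag2, 0.00121 for arg2, 3.66e-05 for si:dkey-85k7.7, 0.0177 for rhoua, 0.0428 for per1a and 0.00068 for per1b. ENSAMXG00000028691, klhl24b, fam131ba, UBB, lmod2a and nfe2l1a were lower at 30 dpci than at 3 dps (edgeR adjusted p = 0.00244 for UBB, 0.0296 for lmod2a and 0.000168 for nfe2l1a). For txnipa, fkbp5, ddit4, fbxo32, dusp7, hif1al, fam107b and btg2 among the lower genes, and hand2, sik1, mdka and col1a2 among the higher ones, the difference from 3 dps did not pass the test, with adjusted p from 0.504 to 1. For these 12 genes the mean at 3 dps, after surgery without freezing, lay on the same side of the uninjured mean as that at 30 dpci. This was largely set by their choice, as they were called against the same uninjured libraries and did not pass against 3 dps. They are examples, and klf13, tmem86a, glulb, dact1, slmapa, pmp22b and zgc:86709 did not pass against 3 dps either. Nor did bhlhe41, bmp10, AVPR1A and epoa (edgeR adjusted p = 0.616, 0.332, 0.191 and 0.484).

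The last comparison asked whether the change at 30 dpci differed between the populations. The PC change minus the SF change passed the same thresholds for 75 of 18763 genes (0.4%), 23 positive (0.123%) and 52 negative (0.277%). Of the 89 genes called in PC, 14 differed from SF at an adjusted p under 0.05. The 89 genes were chosen by their PC change, which is part of the difference tested, so that this count cannot be set against the 0.4% of all genes. Besides the 4 clock genes, hand2 was at 774 ± 82.9 CPM in SF uninjured and 502 ± 50.4 CPM in SF 30 dpci, with a difference of 1.49 ± 0.30 (SE, log2 scale, edgeR adjusted p = 0.00252). mt2 stood at 62.7 ± 32.0 and 46.1 ± 18 CPM in SF, near the injured PC level of 79.3 CPM, and the difference was -2.63 ± 0.48 (adjusted p = 0.000584). ENSAMXG00000028691 was at 309 ± 27.5 and 187 ± 89.2 CPM in SF (difference -2.73 ± 0.49, adjusted p = 0.000466).

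klf13 (61.6 ± 11.2 and 68.8 ± 17.7 CPM in SF) and fam107b (121 ± 22.5 and 145 ± 21.6 CPM) were near level in SF, with differences of -1.97 ± 0.39 and -1.47 ± 0.28 (SE, edgeR adjusted p = 0.00252 and 0.00117). ccn1 was at 16 ± 4.55 and 18.1 ± 6.47 CPM in SF (difference 2.42 ± 0.60, adjusted p = 0.0351). The difference was lost without any 1 of 9 libraries for ccn1, without SF uninjured replicate 3 for klf13 and fam107b, and without PC uninjured replicate 1 for mt2. No leave-one-out fit lost it for ENSAMXG00000028691, hand2 and the 4 clock genes. Thinned libraries lost it for ccn1, klf13 and arntl1b, and the fit of only the groups compared for ccn1 and fam107b. For ccn1 it was also lost without the factor and with the replicate block. The count of 75 fell to 33 and 20 without SF uninjured replicate 2 and 3, to 47 without SF 30 dpci replicate 3, and to 47 and 30 without PC uninjured replicate 1 and 3, and rose to 142 without SF uninjured replicate 1 and to 122 without PC 30 dpci replicate 3. With RLE scaling 33 of 77 differences were positive.

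Genes of the respiratory chain and of the mitochondrial ribosome made up 19 of the 75 differences, all of them negative. They were 6 of 47 genes of complex I, 6 of 60 genes of complexes II to V and 7 of 73 genes of the mitochondrial ribosome, which translates the subunits encoded by mitochondrial DNA, beside 0.277% of all genes with a negative difference. Median differences were -0.70, -0.68 and -0.75 on the log2 scale, against -0.02 over all genes, from a median change of -0.12, 0.07 and -0.07 in PC and 0.72, 0.69 and 0.67 in SF. Negative medians were not particular to these lists. They were lower for complement (-0.98), cell cycle (-1.08), erythroid (-1.11), fast skeletal muscle (-1.57) and liver genes (-2.34), with 0 called differences each. Other lists had positive medians, up to 0.55 for growth factor signalling (0 called). Called differences were not particular to the respiratory and mitochondrial ribosome lists either. The clock list held 7 positive and 2 negative ones among 43 genes, beside 0.123% and 0.277% of all genes. Heat shock genes and chaperones (98) held 1 positive and 2 negative ones, antioxidant genes (47) 2 negative and glucocorticoid targets (29) 2 positive ones. None of the 19 respiratory chain and mitochondrial ribosome genes was called between uninjured and injured PC ventricles.

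UQCR11, a small subunit of complex III, was at 481, 514 and 402 CPM in uninjured PC and 354, 452, 398, 266 and 400.1 CPM in PC at 30 dpci. In SF it was at 135, 98.2 and 177 CPM without injury and 410.0, 305, 634, 378 and 569 CPM at 30 dpci. The PC groups overlapped and the SF groups did not, with uninjured SF below all other groups, and the difference was -2.06 ± 0.41 (SE, log2 scale, edgeR adjusted p = 0.00229). ndufs3, a core subunit of complex I, had means of 208 and 208 CPM in PC and 71.8 and 226 CPM in SF (difference -1.64, adjusted p = 0.019). cox7c of complex IV had means of 3893 and 2803 CPM in PC and 4298 and 7197 CPM in SF (difference -1.20, adjusted p = 0.0165), and mrpl54 of the mitochondrial ribosome 73.7 and 52.0 CPM in PC and 48.3 and 122 CPM in SF (difference -1.76, adjusted p = 0.00216). Of the 19 genes, SF groups did not overlap for 17 and PC groups for 3. Over all genes tested, PC groups did not overlap for 6.07%, and the share for SF was not computed. The 19 genes were chosen by the difference between PC and SF changes, so the SF count follows in part from that choice.

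These calls rested on single libraries more than the medians did. Over the 3 lists, 1 gene was called without SF uninjured replicate 3, 2 without SF uninjured replicate 2, 2 without PC uninjured replicate 3 and 4 without SF 30 dpci replicate 3, and 10 to 12 without SF 30 dpci replicate 4, PC uninjured replicate 1 or PC 30 dpci replicate 1 or 4. Only UQCR11 was called in all 16 fits that each left out 1 library. The count was 6 without the factor of unwanted variation. It was 5 with thinned libraries and 8 with only the 16 libraries compared, 1 of them positive in each of these 2 settings. With the 16 libraries and no factor it was 33, again with 1 positive. The count was 10 with the replicate block and 36 with a filter of at least 10 counts in 5 libraries. The median over the 180 genes of the 3 lists was -0.49 to -0.87 in the 16 fits and -0.50 to -0.83 under the other settings.

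For other genes called in PC the populations were not shown to differ. nppal was at 62.6 CPM in SF uninjured and 126 CPM in SF 30 dpci, with a difference in change of 0.60, mdka at 34.8 and 124 CPM (difference -0.14) and col1a2 at 80.8 and 252 CPM (difference 0.02). txnipa was at 1727 and 1021 CPM in SF (difference -0.39), fbxo32 at 221 and 78.2 CPM (-0.62) and lmod2a at 6377 and 4002 CPM (-1.12). None of these 6 differences passed the test.

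**Figure D5:**
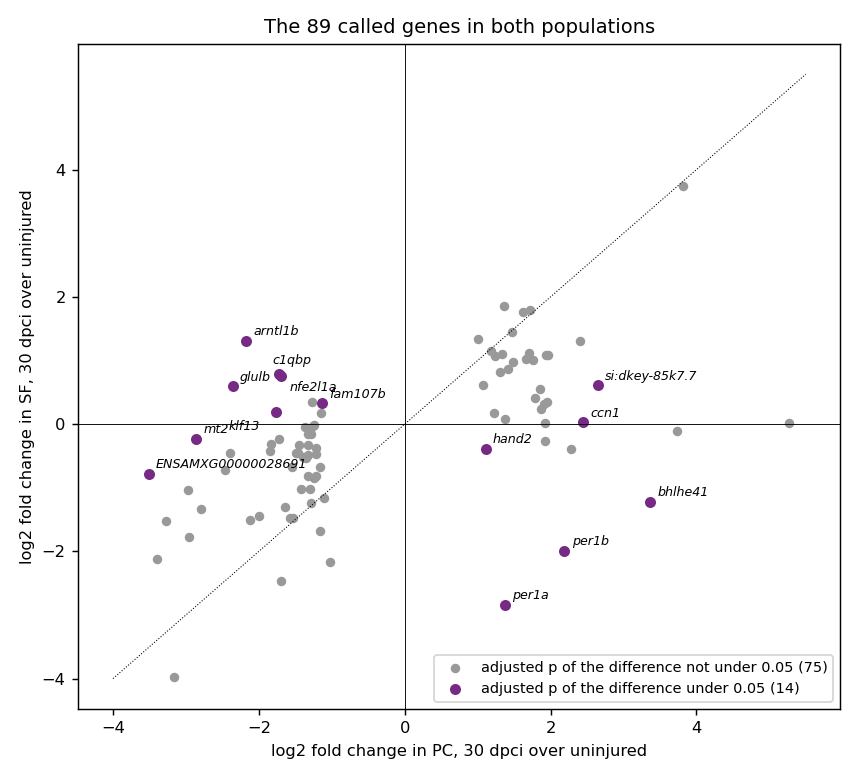
Fitted log2 fold change of 30 dpci over uninjured in PC (x axis) and SF (y axis) for the 89 genes called in PC; the dotted line marks equal change. The 14 genes whose PC change differed from the SF change at an adjusted p under 0.05 are purple, with per1a, per1b and bhlhe41 above 0 in PC and below 0 in SF; the genes were chosen by the values on the x axis.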

How the data were processed

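The authors sequenced QuantSeq 3′ libraries (FWD) of single ventricles, converted reads with bcl2fastq 2.20.0, trimmed them with Trim Galore 0.6.4 and aligned and counted them with STAR 2.7.6a on Mexican tetra 2.0, a surface fish assembly, with a customized Ensembl annotation in which 8721 of 27420 gene models were their own. Use of strand and of multiply matching reads is not given in the sources used here. The deposited counts are whole reads per gene; a deposited table of regularized log2 values was used for gene symbols only.

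The 18763 genes that reached 1 CPM in any library entered edgeR 4.0.16 (quasi-likelihood, R 4.3.3) over all 96 libraries, with TMM scaling, a term per group and 1 RUVg factor (controls: genes with a coefficient of variation under the median) as a covariate. Fitted log2 fold changes are adjusted for this factor, CPM values are not, so that they can differ. The factor was -0.0307 to -0.0131 in PC uninjured and -0.0892 to -0.0516 in PC 30 dpci libraries, ranges that do not overlap. Calls needed an adjusted p under 0.05 and a fold change above 2. SE is the log2 fold change over the root of F. Alternatives used RLE, DESeq2 1.42.0, other filters, other RUVg settings, subsets of libraries, thinned counts, a replicate block and leaving out each library. The fits that left out 1 library kept the gene filter and the dispersion trend estimated from all 96 libraries. Fits were tested on simulated data. Replicates are separate fish. Replicate numbers did not pair the samples (same-number correlation of deviations 0.033, 0.002 and 0.005).

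Named genes are the 15 higher and 15 lower with a symbol and the smallest adjusted p, called genes of 38 lists, the 4 most abundant members and extremes of lists, 4 genes the study followed (myl7, tnnc1a, mdh1ab, pcna), acta1b and ldha; ENSAMXG00000036506, col12a1a, glula, respiratory chain and mitochondrial ribosome genes that differed from SF, the other genes named against 14 dpci and genes given as bounds were named after their values were seen. The lists and this choice were made with earlier results of these data known. Bounds use 3 reads per library and cover counting error only. A further gene called against 14 dpci is not reported here.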

Additional observations from a re-analysis of the deposited data

Results flagged for a closer look

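Among the 5 libraries of PC 30 dpci, 5 of the 89 called genes and 1 of 38 list scores had a library far from the others by Dixon's criterion, which chance meets in about 1 of 20 groups. C14orf119 was at 11.4 CPM in replicate 1 (18.1 to 19.8 CPM in the others) and ankrd9 at 22.7 CPM in replicate 1 (36.1 to 39.0 CPM). arntl1b was at 11.3 CPM in replicate 5 (3.24 to 5.24 CPM), per1a at 41.4 CPM in replicate 3 (57.8 to 62.5 CPM), and the unnamed ENSAMXG00000037931 at 8.63 CPM in replicate 2 (0 to 1.16 CPM). The epicardium score was 3.96 in replicate 2 (4.43 to 4.60).

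For 14 called genes the change at 30 dpci differed between PC and SF by the edgeR interaction test. The PC change minus the SF change was positive for per1a (4.21), per1b (4.17), bhlhe41 (4.59), ccn1 (2.42), si:dkey-85k7.7 (2.04) and hand2 (1.49) on the log2 scale. It was negative for arntl1b (-3.48), glulb (-2.95), ENSAMXG00000028691 (-2.73), mt2 (-2.63), c1qbp (-2.49), nfe2l1a (-2.44), klf13 (-1.97) and fam107b (-1.47). The difference of glulb and of nfe2l1a was lost without SF uninjured replicate 2 or 3 or PC uninjured replicate 3 and with thinned libraries, that of si:dkey-85k7.7 without any 1 of 9 libraries and under 4 other settings, that of c1qbp without any 1 of 10 libraries, and that of arntl1b with thinned libraries. The smallest adjusted p was 4.32e-11 for per1a and the largest 0.0407 for si:dkey-85k7.7.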

How the results depend on the processing

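For 30 dpci against uninjured, the 89 calls stayed within 1.5 times with RLE, DESeq2, other filters, 0 or 2 RUVg factors and the replicate block (89), and were 152 with PC libraries only, 51 with thinned libraries, 285 with the 8 libraries and no factor, and 6 with the 8 libraries and their own factor, which was 0.30 to 0.54 in uninjured and -0.35 to -0.15 in injured libraries and so followed the groups. Leaving out 1 library gave 50 to 86. The difference between populations (75) was 208 with at least 10 counts in 5 libraries, 41 without the factor, 116 with 2 factors, 123 and 288 with only the groups compared with and without the factor, 30 when thinned, 225 with DESeq2 and 20 to 142 leaving out 1 library. Against 14 dpci (10) it was 46 without a filter, 71 without the factor, 49 and 244 with only the groups compared, 52 with PC libraries, 25 thinned, 44 with DESeq2 and 4 to 19 leaving out 1 library; against 3 dps (282) it was 164 with only the groups compared, 174 thinned and 160 to 379 leaving out 1 library. The replicate block gave 54, 12 and 260 calls in these 3 comparisons.

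In the 8-library fit with its own factor, signs turned for arg2 (-0.37), slmapa (-0.17), ypel3 (0.45), nfe2l1a (0.19), tmcc3 (0.56), per1a (-0.83), sync (0.62), pde4bb (-0.30), adrb3a (-0.11), ascc1 (0.09), mdh1ab (-0.29) and pcna (1.99). ldha turned to -0.03 without the factor, -0.01 with the 8 libraries and no factor and -0.05 with PC libraries, and pcna ranged from -0.45 to 0.18 leaving out 1 library, with 0.18 without uninjured replicate 1. Taking CPM on total counts shifted the difference between groups by a median of 0.24 over 5499 genes and turned the complex I score to 0.01. The causes of these changes were not tested.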
